A study of Mus musculus with 18 samples.

Results

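The 10 genes described here (Kcnip1, Cntnap4, Elobl, Pamr1, Adcy5, Ulbp1, Tbx20, Nkain4, Cst3 and Fam111a) were followed in primary mouse embryonic fibroblasts (MEFs) with and without Pole4. They were chosen by their measured values, either because Pole4-/- and Pole4+/+ libraries differed or because the response to Trp53 loss differed between these backgrounds. They are 10 of 51912 genes in the table, and all 10 were among the 15710 genes with enough counts to be tested. RNA-seq was carried out on 18 libraries from 6 genotypes with 3 libraries each: Pole4+/+ cells that were Trp53+/+, Trp53+/- or Trp53-/-, and Pole4-/- cells that were Trp53+/+, Trp53+/- or Trp53-/-. All cells came from mid-gestation embryos of a cross between double heterozygous C57BL/6 parents, with head, heart and liver removed, and were grown to passage 1 at 5% oxygen with 15% serum. The null alleles were present in every cell from conception, so a difference may have arisen at any time before sampling. The labels do not say that the 3 libraries of a genotype came from separate embryos, so p-values measure only the spread between these libraries.

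POLE4 is a small histone-fold subunit of DNA polymerase epsilon, the enzyme that copies the leading strand and takes part in starting replication at origins. Cells that replicate their DNA poorly activate TRP53, a transcription factor that halts the cell cycle mainly through CDKN1A/P21 and thereby holds down E2F-driven genes of S phase. MEFs are a mixed culture of connective tissue cells that keep some of the positional and tissue identity of the embryo.

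The genotype checks came first. Pole4 ran from 9.26 to 12 CPM (counts scaled to a common library size by the TMM method) in the 9 Pole4-/- libraries and from 14.2 to 26.4 CPM in the Pole4+/+ libraries, so a transcript remained at a 1.93-fold lower level (log2 fold change -0.95 ± 0.19 SE in Trp53+/+ cells, edgeR adjusted p = 0.022, and 0.000625 to 0.122 over 13 alternatives). In heterozygotes (-0.97, adjusted p = 0.26) and in Trp53-/- cells (-0.93, adjusted p = 0.3) the difference was of like size and did not pass. Trp53 fell from 64.2 to 96.1 CPM in the Trp53+/+ libraries to 8.65 to 12.1 CPM in the Trp53-/- libraries, and Cdkn1a, its main target in cell cycle arrest, was 35.6-fold lower on average (adjusted p = 2.33e-11). Library totals ran from 9535971 to 35319918 counts, and ribosomal RNA took 0.968% to 42.5% of them. The summed level of 10 fibroblast markers was between 14100 and 32300 CPM in every genotype. Lists of other cell types summed to far less, and only the 6 erythroid markers reached 0 (0 to 1.86 CPM). The 4 cartilage markers summed to 139 to 692 CPM, 9 skeletal muscle markers to 45.3 to 203 CPM and 8 neuronal markers to 50.8 to 90.1 CPM. The 7 epithelial markers summed to 2.06 to 20.2 CPM and 8 heart muscle markers to 3.33 to 15.3 CPM. By Xist and 4 Y-linked genes, 7 libraries were male. They made up the whole of Pole4+/+ Trp53+/-, 2 libraries of Pole4-/- Trp53+/+ and 1 of each other Pole4-/- genotype, so that the remaining Pole4+/+ libraries were all female. Library 1 of Pole4+/+ Trp53-/- stood apart: with Xist at 1081 CPM it held 9.08 CPM of Y-linked reads, against at most 0.337 in the other female libraries and at least 133.6 in the male ones, and results that rest on it are given with and without it. In bulk RNA, fewer cells of a type and less RNA per cell cannot be told apart.

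Of the 10 genes, 5 had their highest genotype mean in Pole4-/- Trp53+/+ MEFs (Elobl, Pamr1, Adcy5, Nkain4 and Cst3) and 4 their lowest (Kcnip1, Cntnap4, Ulbp1 and Fam111a). Tbx20 followed neither course and had a higher mean in Pole4-/- than in Pole4+/+ cells at each Trp53 genotype. In Trp53+/+ cells the Pole4-/- and Pole4+/+ libraries did not overlap for 9 of the 10 genes, against 41.1% of all genes tested; since this contrast chose the genes, nothing is read from that count. Ribosomal RNA took 7.11%, 24.1% and 42.5% of the 3 Pole4-/- Trp53+/+ libraries and 5.81% to 11.3% of the Pole4+/+ Trp53+/+ ones, and its part in the differences was not tested. Per length, Cst3 was the most abundant of the 10 at 73.2 CPM per kb of exon over all libraries and Cntnap4 the least at 0.119. Values below are CPM in libraries 1, 2 and 3 of a genotype, in that order.

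**Figure D1:**
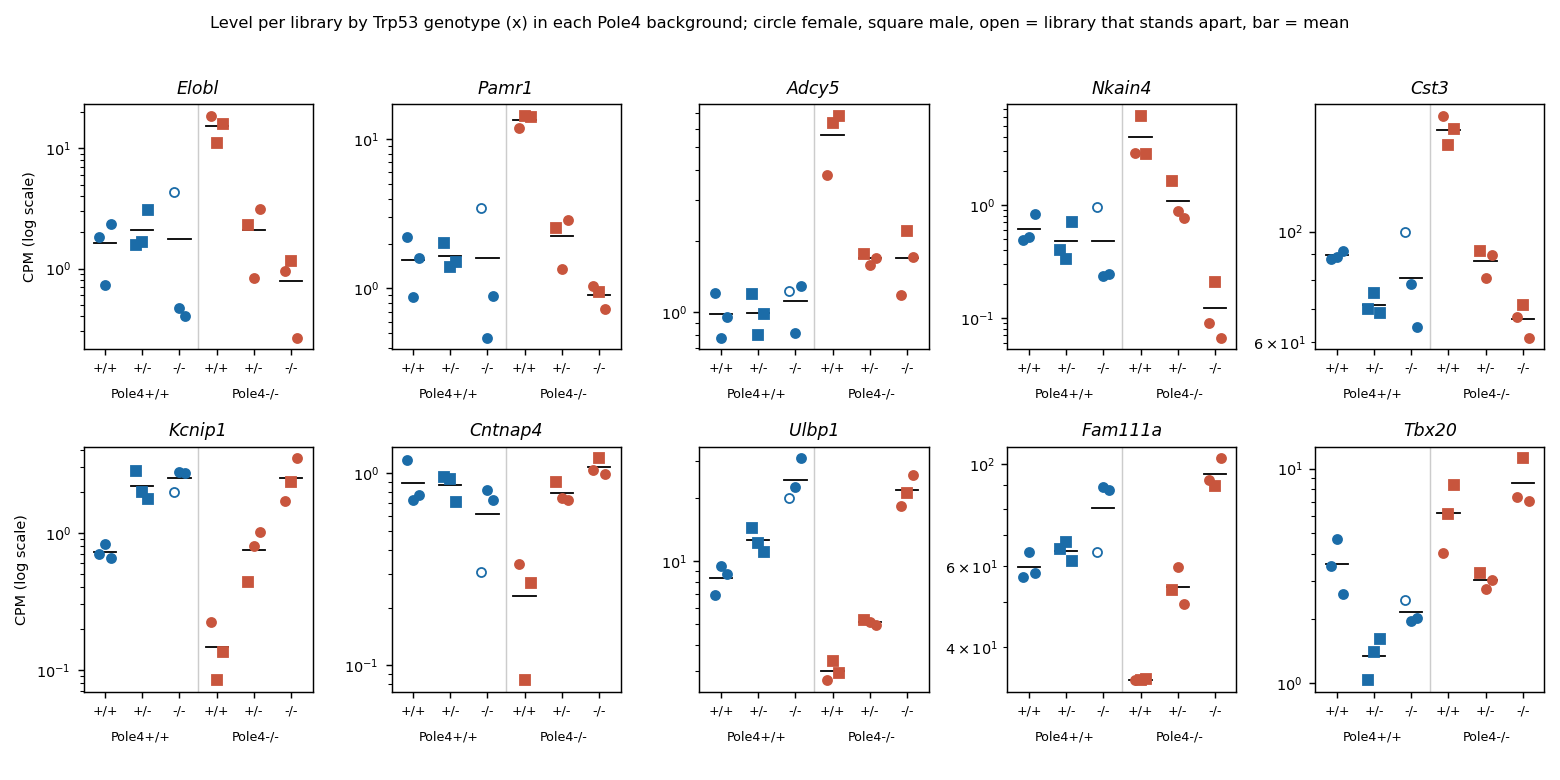
Each panel shows 1 gene, with CPM on a log scale against the Trp53 genotype in Pole4+/+ (blue) and Pole4-/- (red) cells; circles are female and squares male libraries, bars are means of 3 libraries, and the open circle is library 1 of Pole4+/+ Trp53-/-. The upper row holds the 5 genes that were highest in Pole4-/- Trp53+/+ cells, such as Pamr1 with 11.8 to 14.4 CPM there and at most 3.46 CPM elsewhere.

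Among the genes that were high, Elobl encodes a protein like elongin B, the ubiquitin-like adaptor of elongin complexes. In Pole4+/+ cells Elobl stood at 1.84, 0.724 and 2.37 CPM with Trp53, at 1.56, 1.66 and 3.10 CPM in heterozygotes and at 4.38, 0.466 and 0.404 CPM without Trp53. Without Pole4, it stood at 18.8, 11.2 and 16.1 CPM with Trp53, at 2.31, 0.842 and 3.11 CPM in heterozygotes and at 0.953, 1.15 and 0.265 CPM without Trp53. All 3 Pole4-/- Trp53+/+ libraries lay above the other 15, among which neighbouring genotypes overlapped. The log2 fold change of Pole4-/- against Pole4+/+ was 3.22 ± 0.75 (SE) in Trp53+/+ cells, 9.31-fold, and 0.04 ± 0.73 in heterozygotes. Elob itself, from which Elobl takes its name, held a mean of 80.7 to 91.2 CPM in the 6 genotypes. The stretch before the annotated start of Elobl (RefSeq, GRCm38.p6, chr11:88966932-88967181, minus strand) is shown since no CCAAT box, GC box (GGGCGG) or E2F word was found in it on either strand:
Elobl: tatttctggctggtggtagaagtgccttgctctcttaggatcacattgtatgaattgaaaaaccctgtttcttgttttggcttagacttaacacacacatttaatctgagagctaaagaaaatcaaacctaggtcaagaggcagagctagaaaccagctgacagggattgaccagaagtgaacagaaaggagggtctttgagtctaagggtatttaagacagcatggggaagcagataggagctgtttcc

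Pamr1 encodes a secreted protein with a serine-protease-like domain that is known from regenerating muscle. In Pole4+/+ cells it stood at 2.21, 0.879 and 1.60 CPM with Trp53, at 2.01, 1.40 and 1.51 CPM in heterozygotes and at 3.46, 0.466 and 0.889 CPM without Trp53. Pole4-/- libraries stood at 11.8, 14.4 and 14.1 CPM with Trp53 (mean 13.4 ± 1.45 SD, n = 3), at 2.56, 1.36 and 2.86 CPM in heterozygotes and at 1.04, 0.942 and 0.729 CPM without Trp53. The 3 libraries of Pole4-/- Trp53+/+ were again above all others, at 8.41-fold over Pole4+/+ Trp53+/+ cells (log2 fold change 3.07 ± 0.53 SE). Summed fibroblast markers were at 25100 to 32300 CPM in Pole4-/- Trp53+/+ and at 16500 to 22700 CPM in Pole4+/+ Trp53+/+ cells, with 9 of 10 marker means higher. The 9 skeletal muscle markers summed to 143 to 152 CPM and 114 to 153 CPM, with 7 means higher and 1 lower in Pole4-/- cells. Their part in the level of Pamr1 was not tested.

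Adcy5 encodes an adenylate cyclase, which makes the second messenger cAMP. With Pole4, it stood at 1.21, 0.776 and 0.949 CPM with Trp53, at 1.19, 0.799 and 0.976 CPM in heterozygotes and at 1.23, 0.815 and 1.29 CPM without Trp53, so these groups overlapped. Its Pole4-/- libraries stood at 3.82, 6.34 and 6.83 CPM with Trp53, at 1.77, 1.59 and 1.70 CPM in heterozygotes and at 1.18, 2.20 and 1.72 CPM without Trp53. Its Pole4-/- libraries lay above the Pole4+/+ ones in Trp53+/+ cells and in heterozygotes and overlapped them in Trp53-/- cells. The log2 fold change was 2.5 ± 0.31 (SE) in Trp53+/+ cells, 0.74 ± 0.31 in heterozygotes and 0.62 ± 0.31 in Trp53-/- cells. With sex as a factor these 3 values were 2.13 ± 0.31, 1.08 ± 0.32 and 0.42 ± 0.29. The window before its start (GRCm38.p6, chr16:35154614-35154863, plus strand) is shown for its 4 GC boxes, in capitals, the most of the 7 genes with a promoter entry:
Adcy5: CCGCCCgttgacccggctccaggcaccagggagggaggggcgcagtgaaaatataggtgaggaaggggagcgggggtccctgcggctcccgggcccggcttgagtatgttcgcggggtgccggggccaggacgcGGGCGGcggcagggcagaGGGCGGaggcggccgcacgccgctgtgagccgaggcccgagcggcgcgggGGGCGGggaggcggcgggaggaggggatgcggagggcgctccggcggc

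Nkain4 encodes a small membrane protein that interacts with the sodium/potassium ATPase and is known mainly from neural tissue. Its Pole4+/+ libraries were at 0.484, 0.517 and 0.831 CPM with Trp53, at 0.398, 0.333 and 0.710 CPM in heterozygotes and at 0.948, 0.233 and 0.243 CPM without Trp53. The Pole4-/- libraries stood at 2.88, 6.18 and 2.81 CPM with Trp53, at 1.62, 0.888 and 0.760 CPM in heterozygotes and at 0.0907, 0.209 and 0.0663 CPM without Trp53. It thus held both its highest and its lowest genotype mean in Pole4-/- cells, and the 3 Pole4-/- genotypes did not overlap each other. The lowest of them rests on 7 counts in all (95% Poisson interval 2.81 to 14.4, counting error only), the highest on 172. Glial markers were also higher in Pole4-/- Trp53+/+ cells, with 5 of 6 means higher than in Pole4+/+ Trp53+/+ and summed levels of 2.85 to 6.83 CPM against 1.36 to 2.55 CPM. Sox10, a transcription factor that defines neural crest glia, averaged 1.11 CPM against 0.46 CPM. In heterozygotes and in Trp53-/- cells 2 of 6 glial means were higher and 4 lower in Pole4-/- cells. Of the 8 neuronal means 3 were higher and 5 lower in Pole4-/- Trp53+/+ cells. The part of glial or neuronal cells in the level of Nkain4 was not tested.

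Cst3 encodes cystatin C, a secreted inhibitor of cysteine proteases that most cells make. Its Pole4+/+ libraries stood at 88.3, 88.8 and 91.5 CPM with Trp53, at 70.0, 75.2 and 68.7 CPM in heterozygotes and at 99.9, 78.4 and 64.4 CPM without Trp53. Its Pole4-/- libraries stood at 171, 149 and 161 CPM with Trp53, at 91.3, 80.7 and 89.7 CPM in heterozygotes and at 67.5, 71.4 and 61.2 CPM without Trp53. Pole4+/+ Trp53+/+ cells averaged 89.6 ± 1.74 CPM (SD, n = 3) and Pole4-/- Trp53+/+ cells 160 ± 10.7 CPM, 1.79-fold higher, in the contrast that chose the genes. Every other pair of neighbouring genotypes overlapped. The fibroblast sums given for Pamr1 also separate these Trp53+/+ genotypes. All 8 macrophage marker means were lower in the Pole4-/- ones, with overlapping sums (8.2 to 19.7 against 4.14 to 46.8 CPM). The part of such cells in the level of Cst3 was not tested.

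Among the genes that were low, Ulbp1 encodes a surface ligand of the NKG2D receptor, through which natural killer cells recognise stressed cells. The Pole4+/+ libraries stood at 6.89, 9.46 and 8.66 CPM with Trp53, at 14.4, 12.2 and 11.1 CPM in heterozygotes and at 20, 22.6 and 31.0 CPM without Trp53. Without Pole4, the libraries were at 2.70, 3.34 and 2.94 CPM with Trp53, at 5.26, 5.14 and 4.99 CPM in heterozygotes and at 18.4, 21.2 and 25.8 CPM without Trp53. Ulbp1 ordered the genotypes most sharply of the 10: with each loss of a Trp53 allele the level was higher in both backgrounds without overlap, and only the 2 Trp53-/- genotypes overlapped among neighbours. The Pole4 difference was 2.80-fold lower in Trp53+/+ cells (log2 fold change -1.48 ± 0.19 SE), 2.46-fold lower in heterozygotes (-1.30 ± 0.18) and -0.17 ± 0.17 on the log2 scale in Trp53-/- cells. The 89 bases that lie before any annotated exon of Ulbp1 (GRCm38.p6, chr10:7473639-7473727, minus strand) are shown since they hold a CCAAT box and the E2F word TTCCCGC, in capitals:
Ulbp1: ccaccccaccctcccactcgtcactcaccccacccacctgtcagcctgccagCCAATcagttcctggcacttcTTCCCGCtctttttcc

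Fam111a encodes a protease that binds PCNA and acts at obstacles in front of replication forks. Libraries with Pole4 stood at 56.8, 64.2 and 58.0 CPM with Trp53, at 65.4, 67.6 and 61.5 CPM in heterozygotes and at 64.2, 89.2 and 87.7 CPM without Trp53. The libraries lacking Pole4 were at 33.9, 33.8 and 34.1 CPM with Trp53, at 53.1, 59.6 and 49.7 CPM in heterozygotes and at 92.5, 89.6 and 103 CPM without Trp53. The Pole4-/- genotypes thus spanned a wider range than the Pole4+/+ ones on both sides, and the 3 Pole4-/- Trp53+/+ libraries agreed to within 0.171 CPM (SD). Fam111a was 1.76-fold lower in Pole4-/- Trp53+/+ than in Pole4+/+ Trp53+/+ cells (log2 fold change -0.81 ± 0.11 SE). Its upstream window (GRCm38.p6, chr19:12573260-12573509, plus strand) is shown for its 3 CCAAT boxes, of which the leftmost reads ATTGG on this strand, and its GC box, in capitals:
Fam111a: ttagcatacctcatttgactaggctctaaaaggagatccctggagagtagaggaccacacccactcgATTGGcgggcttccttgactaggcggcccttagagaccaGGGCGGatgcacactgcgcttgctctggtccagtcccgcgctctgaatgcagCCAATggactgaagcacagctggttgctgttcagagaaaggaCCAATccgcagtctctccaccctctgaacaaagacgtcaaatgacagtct

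Kcnip1 encodes a calcium-binding protein that modulates voltage-gated Kv4 potassium channels. Where Pole4 was present it stood at 0.695, 0.827 and 0.653 CPM with Trp53, at 2.81, 2 and 1.77 CPM in heterozygotes and at 1.98, 2.79 and 2.75 CPM without Trp53. The libraries without Pole4 stood at 0.225, 0.0835 and 0.134 CPM with Trp53, at 0.436, 0.795 and 1.01 CPM in heterozygotes and at 1.72, 2.36 and 3.51 CPM without Trp53. Heterozygotes thus stood at the Trp53-/- range in Pole4+/+ cells, while Pole4-/- heterozygotes stood with Pole4+/+ Trp53+/+ cells. The rise from Trp53+/+ to heterozygotes was 4.36-fold in Pole4-/- and 3.05-fold in Pole4+/+ cells, a log2 difference of 0.51 ± 0.58 (SE). All Pole4+/+ heterozygotes were male and the other Pole4+/+ libraries female, and the part of sex was not tested. The lowest group holds 6, 1 and 1 counts, 8 in all (95% Poisson interval 3.45 to 15.8), and its 4.27-fold difference from Pole4+/+ Trp53+/+ cells is of that precision. With 1 library left out, the log2 fold change of -2.10 ran from -2.77 to -1.85. Kcnmb1, which lies within Kcnip1 on the opposite strand, was also measured, and the counting is not stated to use strand.

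Cntnap4 encodes a neurexin-like adhesion protein of neurons. In cells with Pole4 it stood at 1.18, 0.724 and 0.771 CPM with Trp53, at 0.954, 0.932 and 0.710 CPM in heterozygotes and at 0.307, 0.815 and 0.728 CPM without Trp53. In cells lacking Pole4 it stood at 0.337, 0.0835 and 0.268 CPM with Trp53, at 0.898, 0.748 and 0.723 CPM in heterozygotes and at 1.04, 1.20 and 0.995 CPM without Trp53. Every pair of neighbouring genotypes overlapped, and the low Pole4-/- Trp53+/+ group rests on 12 counts (95% Poisson interval 6.20 to 21.0) against 66 in Pole4+/+ Trp53+/+ cells. The log2 fold change between them was -1.86, and -2.49 to -1.51 with 1 library left out. The 8 neuronal markers summed to 53.1 to 62.6 CPM and 50.8 to 59.4 CPM in the same genotypes, with 3 of 8 means higher in Pole4-/- cells.

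Tbx20 encodes a T-box transcription factor of the developing heart and of motor neurons. Its libraries with Pole4 stood at 3.51, 4.70 and 2.61 CPM with Trp53, at 1.03, 1.40 and 1.60 CPM in heterozygotes and at 2.45, 1.94 and 2.02 CPM without Trp53. Among Pole4-/- libraries it stood at 4.04, 6.18 and 8.43 CPM with Trp53, at 3.28, 2.76 and 3.04 CPM in heterozygotes and at 7.39, 11.2 and 7.09 CPM without Trp53. Its Pole4 difference was positive throughout, with overlapping libraries in Trp53+/+ cells (log2 fold change 0.75 ± 0.28 SE) and without overlap in heterozygotes (1.21 ± 0.30) and in Trp53-/- cells (1.99 ± 0.28, 3.98-fold). With sex as a factor these values were 0.36 ± 0.27, 1.58 ± 0.28 and 1.78 ± 0.24. The 6 mesothelial markers summed to 12.7 to 19.9 CPM in Pole4-/- and 18.2 to 31.4 CPM in Pole4+/+ cells with Trp53, and to 25.9 to 30.6 CPM against 12.2 to 20 CPM in heterozygotes. In each of these comparisons 4 of 6 means were higher and 2 lower in Pole4-/- cells. In Trp53-/- cells all 6 means were higher in Pole4-/- cells and the sums were 27.7 to 47.5 CPM against 10.7 to 23.0 CPM: Upk3b averaged 4.69 against 1.01 CPM and Wt1 3.34 against 0.692 CPM. The 8 heart muscle markers summed to 7.49 to 15.3 CPM and 5.33 to 10.6 CPM there, with 6 of 8 means higher, to 5.82 to 7.31 CPM and 4.69 to 6.19 CPM in heterozygotes, and to 3.33 to 4.59 CPM against 5.14 to 7.19 CPM in Trp53+/+ cells, with 3 of 8 means higher. Ribosomal RNA took 24.7% to 30% of the Pole4-/- Trp53-/- libraries and 1.82% to 13.1% of the Pole4+/+ Trp53-/- ones. The part of each of these in the level of Tbx20 was not tested. The stretch before the annotated start (GRCm38.p6, chr9:24774304-24774553, minus strand) is shown beside the others for its 2 GC boxes, in capitals, and since no CCAAT box was found in it:
Tbx20: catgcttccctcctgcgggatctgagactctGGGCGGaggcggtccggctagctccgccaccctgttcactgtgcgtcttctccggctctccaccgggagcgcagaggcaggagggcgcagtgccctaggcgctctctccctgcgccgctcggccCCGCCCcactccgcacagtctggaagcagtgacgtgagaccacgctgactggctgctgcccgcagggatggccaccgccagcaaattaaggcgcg

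The question of whether the Pole4 difference depended on Trp53 was followed over the 3 Trp53 genotypes. The Pole4-/- and Pole4+/+ libraries did not overlap for 7 of the 10 genes in heterozygotes (13.1% of all genes tested) and for 4 in Trp53-/- cells (9.15%), namely Cntnap4, Tbx20, Nkain4 and Fam111a. For Cntnap4, Nkain4 and Fam111a the direction in Trp53-/- cells was opposite to that in Trp53+/+ cells, with log2 fold changes of 0.84 ± 0.41, -1.99 ± 0.69 and 0.24 ± 0.11 (SE); scaled by library totals alone, Fam111a turned to -0.16, where the median of all genes itself stood at -0.44. The ribosomal RNA shares given for Tbx20 also separate these Trp53-/- genotypes, and their part in these differences was not tested. Ulbp1 and Kcnip1 kept most of their difference in heterozygotes, Elobl and Cntnap4 little of it. The difference between the Trp53-/- effects of the 2 backgrounds ran from -4.70 ± 0.87 (Nkain4) to 2.71 ± 0.62 (Cntnap4) on the log2 scale, and was negative for the 5 genes that were high in Pole4-/- Trp53+/+ cells and positive for the other 5.

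**Figure D2:**
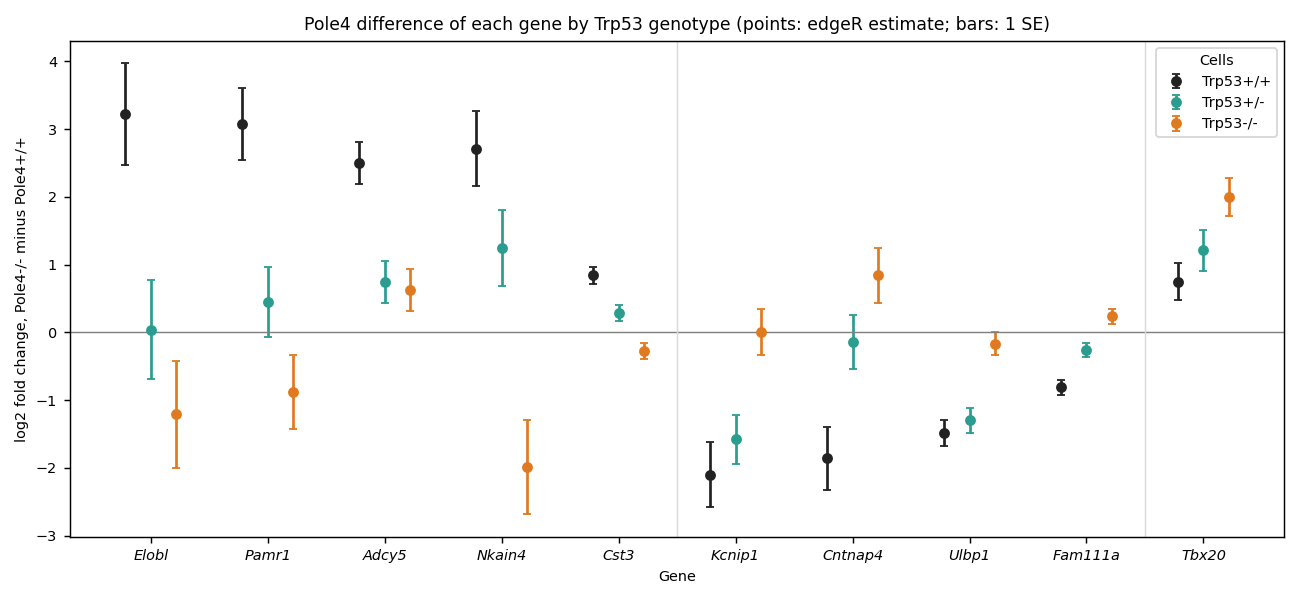
The log2 fold change of Pole4-/- against Pole4+/+ is plotted for each gene in Trp53+/+ (black), Trp53+/- (green) and Trp53-/- (orange) cells, as the edgeR estimate with bars of 1 SE. From left to right come the genes that were high, those that were low in Pole4-/- Trp53+/+ cells, and Tbx20, whose values rise from 0.75 to 1.99.

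The same values can be read along Trp53 within each background, where the choice of genes again sets much of the pattern and nothing is read from the counts. In Pole4-/- cells the Trp53-/- libraries did not overlap the Trp53+/+ ones for 9 of the 10 genes (57.0% of all genes tested), Tbx20 being the exception. There Kcnip1 was 14.8-fold, Ulbp1 7.32-fold, Cntnap4 4.36-fold and Fam111a 2.80-fold higher without Trp53. Nkain4 was 30.6-fold, Elobl 18.8-fold, Pamr1 14.6-fold, Adcy5 3.30-fold and Cst3 2.40-fold lower without Trp53. In Pole4+/+ cells 4 of the 10 did not overlap (16.5% of all genes), with Kcnip1 3.42-fold, Ulbp1 2.94-fold and Fam111a 1.35-fold higher and Tbx20 1.68-fold lower without Trp53. Loss of 1 allele separated all 10 genes in Pole4-/- cells (40.3% of all genes) and 4 in Pole4+/+ cells (20.3%), where sex also separated these genotypes.

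Library 1 of Pole4+/+ Trp53-/- moved that contrast between backgrounds for some of the genes. Elobl was 10.1-fold, Pamr1 5.11-fold and Nkain4 3.99-fold higher in it than in the mean of libraries 2 and 3, while Adcy5 lay between them. Without it, a choice made after seeing the data, 7 of the 10 genes did not overlap in Pole4+/+ cells (45.1% of all genes). The log2 fold change of Trp53-/- against Trp53+/+ in Pole4+/+ cells then went from 0.19 to -1.91 for Elobl, from 0.09 to -1.35 for Pamr1, from -0.23 to -1.35 for Nkain4 and from -0.14 to -0.35 for Cst3. The difference between backgrounds went from -4.43 ± 1.08 to -2.33 ± 0.92 (SE) for Elobl and from -3.95 ± 0.76 to -2.53 ± 0.56 for Pamr1. For Nkain4 it went from -4.70 ± 0.87 to -3.60 ± 0.85. It moved less for Kcnip1 (2.11 to 1.95), Cntnap4 (2.71 to 2.34) and Adcy5 (-1.88 to -1.75). In Trp53-/- cells the Pole4 difference went from 0.84 ± 0.41 to 0.48 ± 0.40 for Cntnap4 and from 0.24 ± 0.11 to 0.11 ± 0.08 for Fam111a. It turned from -1.21 to 0.88 ± 0.74 for Elobl and from -0.88 to 0.53 ± 0.45 for Pamr1 and went from -1.99 to -0.89 ± 0.72 for Nkain4, and 4 genes again did not overlap (19.2% of all genes).

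**Figure D3:**
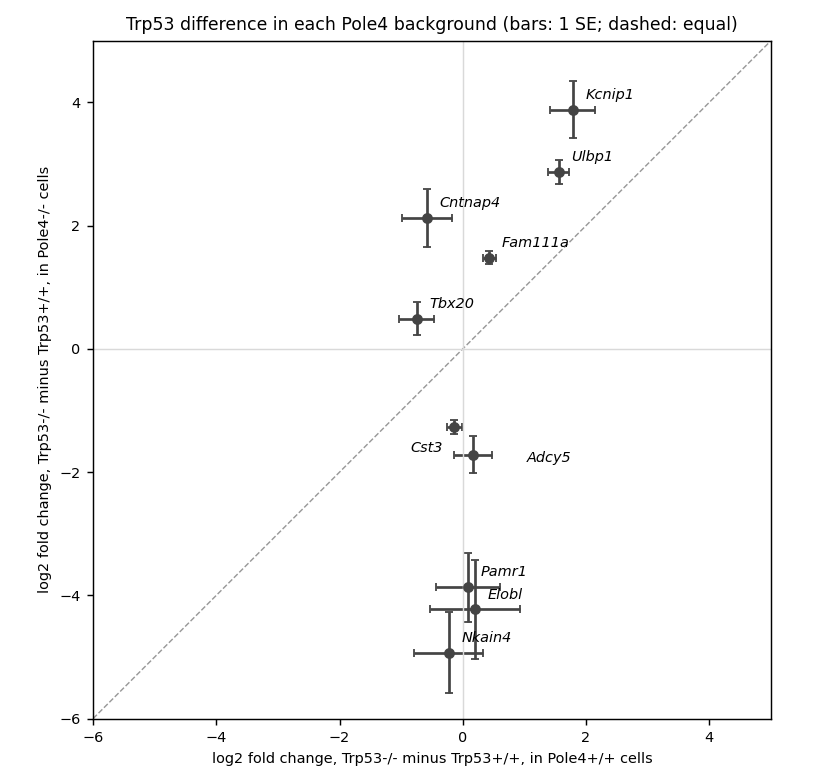
For each gene the log2 fold change of Trp53-/- against Trp53+/+ in Pole4-/- cells is plotted against that in Pole4+/+ cells, with bars of 1 SE and a dashed line where both are equal; all libraries are included. Elobl, Pamr1, Nkain4, Adcy5 and Cst3 sit near 0 on the x axis and between -4.93 and -1.27 on the y axis.

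Sex differed between the genotypes in the comparison that set these genes apart, with 2 male libraries in Pole4-/- Trp53+/+ and none in Pole4+/+ Trp53+/+ cells. In Pole4+/+ cells the 3 heterozygous libraries were male and the 3 Trp53+/+ ones female. The loss of 1 allele there cannot be told apart from sex. In the 1 female Pole4-/- Trp53+/+ library, 9 of the 10 genes lay outside the range of the 3 female Pole4+/+ Trp53+/+ libraries, as did 69.9% of all genes, and Tbx20 lay within it at 4.04 CPM. Elobl was at 18.8 CPM and Cst3 at 171 CPM there, the highest of their genotype, and Adcy5 was at 3.82 CPM, the lowest. A fit with sex as a factor kept the sign of all 10 genes in each of the 6 comparisons, which the choice of genes on these same libraries largely sets, and over all genes it called 8 for Pole4 in Trp53+/+ cells, where the fit without sex called 626. The part of sex in these differences was not tested further.

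The effect of Trp53 averaged over both Pole4 backgrounds contains the Pole4-/- Trp53+/+ libraries on which these genes were chosen, so its values are a description, without p-values for the 10 genes. Whether a gene passed the threshold is likewise a description here and no test of that gene. In Trp53-/- against Trp53+/+ cells 8 of the 10 genes passed the edgeR threshold (adjusted over all genes), against 37.4% of the genes tested, and nothing is read from that count. Kcnip1 (log2 fold change 2.83 ± 0.29 SE), Ulbp1 (2.21 ± 0.13) and Fam111a (0.96 ± 0.08) were among the 20.3% of genes that rose. Nkain4 (-2.58 ± 0.43), Elobl (-2.02 ± 0.54), Pamr1 (-1.89 ± 0.38), Adcy5 (-0.78 ± 0.22) and Cst3 (-0.70 ± 0.08) were among the 17.1% that fell. Cntnap4 (0.77 ± 0.31) and Tbx20 (-0.13 ± 0.19) did not pass. Without library 1 of Pole4+/+ Trp53-/- the value was -3.08 for Elobl, -2.62 for Pamr1, -3.15 for Nkain4 and -0.82 for Cst3, and Cntnap4 (0.92 ± 0.29) passed as well. Adcy5 no longer passed with library totals alone. For Tbx20 the average joins 0.49 ± 0.27 in Pole4-/- and -0.75 ± 0.28 in Pole4+/+ cells.

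The average of Trp53+/- against Trp53+/+ cells contains the same libraries and is given in the same way. Here 6 of the 10 genes passed, against 6.68% of the genes tested, and nothing is read from that count. Kcnip1 (log2 fold change 1.87 ± 0.30 SE), Ulbp1 (0.70 ± 0.13) and Fam111a (0.40 ± 0.08) were among the 3.53% of genes that rose. Tbx20 (-1.24 ± 0.20), Cst3 (-0.60 ± 0.08) and Adcy5 (-0.85 ± 0.22) were among the 3.15% that fell. Adcy5 passed in 9 of 19 alternatives, and Cst3 in all but the scaling by library totals alone. Tbx20 was lower with 1 allele lost in both backgrounds, by 2.01-fold in Pole4-/- and 2.76-fold in Pole4+/+ cells. In Pole4+/+ cells all heterozygous libraries were male and all Trp53+/+ ones female, so sex and the lost allele cannot be told apart there. Pamr1 (-1.24 ± 0.36), Nkain4 (-1.11 ± 0.39), Cntnap4 (0.82 ± 0.31) and Elobl (-1.27 ± 0.52) did not pass.

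Over the 18 libraries the genes moved as 2 blocks that were named from these same values, so the correlations are a description only. Among the 5 genes that were high in Pole4-/- Trp53+/+ cells, Pearson's r of log2 CPM over 10 pairs ran from 0.69 to 0.95, and among the 4 that were low it ran from 0.54 to 0.94 over 6 pairs. Between the blocks all 20 pairs had a negative r, from -0.95 (Nkain4 with Fam111a) to -0.63 (Adcy5 with Ulbp1). Tbx20 stood aside, with r of 0.08 to 0.58 with the former and -0.36 to -0.09 with the latter. All points share the libraries, their depth and the genotypes.

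**Figure D4:**
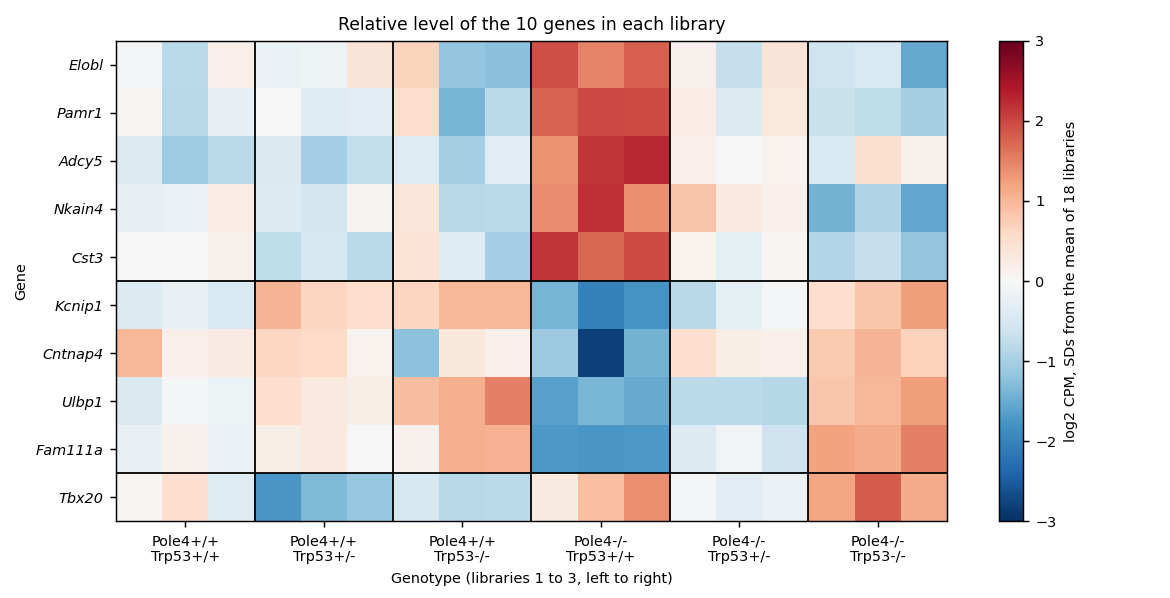
Each cell shows the log2 CPM of 1 gene in 1 library, in SDs from its mean over 18 libraries, red above and blue below; columns are the 3 libraries of each genotype. The 3 Pole4-/- Trp53+/+ columns are red for Elobl, Pamr1, Adcy5, Nkain4 and Cst3 and blue for Kcnip1, Cntnap4, Ulbp1 and Fam111a.

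The gene most like each in pattern was taken from all genes tested by Pearson's r over the 18 libraries. Fam111a went with Trip13 (r = 0.988), a checkpoint and recombination ATPase, and Ulbp1 with Ints7 (0.967), an Integrator subunit. Elobl and Pamr1 shared 1 nearest gene, Plekhg6 (0.976 and 0.965). Nkain4 went with Hexa (0.952), a lysosomal hexosaminidase subunit, and Cst3 with Gyg (0.95), the primer of glycogen synthesis. Kcnip1 went with Eml4 (0.957), Cntnap4 with Homer1 (0.922), Adcy5 with Parm1 (0.887) and Tbx20 with Rbm41 (0.866).

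Close relatives of the genes mostly did not pass in the comparisons that set the 10 apart. Of 56 listed relatives (KChIP, contactin-associated, elongin, adenylate cyclase, NKG2D ligand, T-box, NKAIN and cystatin genes) 29 were tested. In Trp53+/+ cells 2 were higher in Pole4-/- cells, Adcy2 (log2 fold change 0.76, edgeR adjusted p = 0.0379) and Tbx15 (0.37, 0.0357), and 0 were lower. By edgeR 0 passed in heterozygotes, in Trp53-/- cells or for the difference between backgrounds, where 2, 1 and 7 had an unadjusted p under 0.05 and DESeq2 called 0, 0 and 4. Over all genes the same fit called 3.98% of those tested in Trp53+/+ cells (1.29% higher and 2.70% lower), 0.00637% (1 gene) in heterozygotes and in Trp53-/- cells, and 0.331% for the difference between backgrounds (0.178% positive and 0.153% negative). These shares depend on the fit, with 8 to 3358 genes called in Trp53+/+ cells and 0 to 3242 for the difference between backgrounds over the alternatives. Adcy2 and Tbx15 passed in 5 and 4 of 13 alternatives. On average over the backgrounds 8 of the 29 rose and 4 fell without Trp53, where 20.3% and 17.1% of all genes did. Kcnip3 rose (0.92, adjusted p = 0.00165) and Adcy2 fell (-1.59). The other NKG2D ligands tested were Raet1d, which rose (0.40, 0.0479), and Raet1e, which did not pass (0.19, 0.55).

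Some partners of POLE4 also differed in Trp53+/+ cells. Of the 5 genes listed with polymerase epsilon, Pole, its catalytic subunit, and Pole2 were lower in Pole4-/- Trp53+/+ cells (log2 fold change -0.94 ± 0.20 SE, edgeR adjusted p = 0.0244, and -0.99 ± 0.25, 0.0379), as was Pole4 itself. Both Pole and Pole2 passed in 7 of 13 alternatives, and with sex as a factor their adjusted p was 0.139 and 0.164. The histone-fold partners Pole3 (-0.14 ± 0.16, 0.58) and Chrac1 (-0.47 ± 0.19, 0.132) did not pass. Without Trp53, Pole (1.20), Pole2 (1.16) and Pole3 (0.51) rose on average over both backgrounds. In Pole4-/- cells their log2 fold changes were 1.76, 1.79 and 0.66. In Pole4+/+ cells they were 0.63, 0.53 and 0.37 (edgeR adjusted p = 0.0739, 0.212 and 0.191), with overlapping libraries, and did not pass.

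The 10 genes lay on 7 chromosomes by the GENCODE annotation of GRCm38, and none on chromosome 6, which holds Pole4. Pamr1 (chr2:102550012-102643041), Cst3 (chr2:148871722-148875692) and Nkain4 (chr2:180934772-180954699) shared chromosome 2, while Kcnip1 (chr11:33629339-33993152) and Elobl (chr11:88964658-88966931) lay 35.6 and 19.4 Mb from Trp53. Cntnap4 (chr8:112570043-112882717), Tbx20 (chr9:24718138-24774303), Ulbp1 (chr10:7440362-7473638), Adcy5 (chr16:35154877-35305738) and Fam111a (chr19:12545740-12589768) were each alone. Of the 100-base words in the transcripts of each gene, 0% were found in other genes for 6 of them, and the share was 0.248% for Ulbp1, 1.75% for Elobl, 6.5% for Cntnap4 and 11.7% for Fam111a, whose shared words lie in a pseudogene that overlaps it.

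For the promoters, RefSeq entries matched 7 of the 10 genes, Cntnap4, Pamr1 and Nkain4 having none, and the 250 bases before each start were searched on both strands. A CCAAT box was found for Ulbp1, in both overlapping windows of Fam111a and in 1 of 3 windows of Kcnip1, and in 33.8% of the 32851 windows of the table. A GC box (GGGCGG) was found for Adcy5, Cst3 and Tbx20, in both windows of Fam111a and in 1 of 3 of Kcnip1, and in 32.7% of all windows. With so few windows, no share is set against these. An E2F word (TTCCCGC, or the word TTGGCGC, or the word TTCGCGC, or the word TTGCCGC) was found for Ulbp1 alone and in 7.89% of windows, and the word TATAAA for none of the 7 and in 12.4% of windows. None of these motifs shares bases with another in the windows printed, and a match is a description of the letters and not of binding.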

How the data were processed

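RNA-seq was run on 18 MEF libraries. Per the labels and the study's methods, the authors ran Trim Galore on the reads, used STAR 2.5.2 for alignment to the GRCm38 genome and counted them per gene with RSEM 1.3.0, and the deposited table holds expected counts, of which 6.14% are not whole numbers. Strandedness of the counting was not given in the sources used here. The expected counts were rounded, genes with low counts removed (filterByExpr), and the 15710 genes left were fitted with edgeR 4.0.16 (R 4.3.3), TMM scaling and a quasi-likelihood model with 6 genotype means over all libraries (12 residual degrees of freedom). A gene was called at a Benjamini-Hochberg adjusted p under 0.05. CPM are values computed from these counts, and log2 CPM used a prior count of 2. Contrasts that chose the genes, or that contain the libraries they were chosen on, are given without p-values for these genes. Where such a gene is said to pass, this is a description and no test. Library totals set the counting error, and Poisson intervals cover that error only. Alternatives were other scalings, no filter, a replicate block, sex, DESeq2 1.42.0, only the libraries compared, and leaving out each library. The 10 genes and all gene lists were chosen with earlier results of these data known. Genes were named as the 10 members, their listed relatives, and the gene with the highest Pearson's r to each. The fit was tested on simulated data for the averaged Trp53-/- comparison alone, with 200 genes changed. This does not bear on the Pole4 contrasts or on the difference between backgrounds.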

Additional observations from a re-analysis of the deposited data

Results flagged for a closer look

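For 3 genes the libraries of the Pole4 genotypes stood apart one way in Trp53+/+ cells and the opposite way in Trp53-/- cells, each time without overlap, and that difference was not tested because the genes were chosen on it. Of all genes tested, 41.1% did not overlap in Trp53+/+ cells and 9.15% in Trp53-/- cells. In Trp53-/- cells the nearest Pole4-/- and Pole4+/+ libraries were close, at 89.6 and 89.2 CPM for Fam111a and at 0.209 and 0.233 CPM (4 and 6 counts) for Nkain4. For Cntnap4 the log2 fold change of Pole4-/- against Pole4+/+ was -1.86 with Trp53 and 0.84 without it, the latter 0.48 without library 1 of Pole4+/+ Trp53-/-. For Nkain4 it was 2.71 with Trp53 and -1.99 without it (-0.89 without that library). With sex as a factor these Nkain4 values were 2.10 and -2.37. For Fam111a it was -0.81 with Trp53 and 0.24 without it, and the latter turned to -0.16 when libraries were scaled by their totals alone and was 0.11 without that library.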

How the results depend on the processing

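The members' log2 fold changes took another sign in 14 of 959 comparisons with an alternative. Of these 10 were for Elobl for Pole4 in heterozygotes and Kcnip1 and Ulbp1 for Pole4 in Trp53-/- cells, with reported values within 0.17 of 0. The other 4 were Tbx20 in Trp53-/- against Trp53+/+ cells, where leaving out a library gave -0.25 to 0.01 (0.01 without library 3 of Pole4-/- Trp53+/+), Elobl and Pamr1 for the Pole4 difference in Trp53-/- cells, which ran from -1.67 to 0.88 and from -1.33 to 0.53 (the upper values without library 1 of Pole4+/+ Trp53-/-), and Fam111a there, at -0.16 with library totals alone. The cause was not tested. Called members numbered 8 to 9 for Trp53-/- and 5 to 7 for Trp53+/- when 1 library was left out, where 4973 to 7693 and 478 to 1059 of all genes passed. Library totals alone gave 7 (without Adcy5) and 4 (without Adcy5 and Cst3), beside 3142 and 545 of all genes. Only the libraries compared gave 8 and 9 (with Elobl, Pamr1 and Nkain4), beside 5084 and 2580 of all genes. Since the genes were chosen on these libraries, nothing is read from these counts. For Trp53+/- Adcy5 passed in 9 of 19 alternatives and Cst3 in 18.

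Counts over all genes moved more. With library totals alone, 3142 genes passed for Trp53-/- (5872 in the reported fit), 545 for Trp53+/- (1049), 2244 for Pole4 in Trp53+/+ cells (626) and 0 for Pole4 in heterozygotes (1), in Trp53-/- cells (1) and for the difference between backgrounds (52). By an unadjusted p under 0.05 edgeR gave 866, 1636 and 4453 genes for the last 3 in the reported fit. With only the libraries compared the counts were 2580 for Trp53+/-, 3358 for Pole4 in Trp53+/+ cells and 0 for each of the last 3. DESeq2 gave 1610 for Trp53+/-, 1589 for Pole4 in Trp53+/+ cells, and 39, 27 and 1795 for the last 3. With sex as a factor 8 genes passed for Pole4 in Trp53+/+ cells and 0 in heterozygotes and for the difference between backgrounds. RLE size factors gave 0 for Pole4 in Trp53-/- cells and 252 for the difference between backgrounds, and no filter gave 2 and 339. Leaving out 1 library gave 478 to 1059 for Trp53+/-, 8 to 799 for Pole4 in Trp53+/+ cells (8 without library 2 of Pole4+/+ Trp53+/+), 0 in heterozygotes, 0 to 2 in Trp53-/- cells and 0 to 3242 for the difference between backgrounds (170, 1973 and 3242 without library 1, 2 or 3 of Pole4+/+ Trp53-/-).

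With the replicate number as a block, 0 genes passed for Pole4 in Trp53-/- cells and 548 for the difference between backgrounds, and Pamr1 also passed for Trp53+/-. Deviations of same-numbered libraries had r from -0.26 to 0.59 (median 0.10, 22 of 45 pairs over 0.1), those of other pairs a median of -0.06 (16 of 90 over 0.1), and 13 of 18 libraries correlated best with their own number. Since not every same-numbered pair was over 0.1, the numbers were not taken as pairs. Low counts limit Kcnip1, Cntnap4 and Nkain4.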
